A study of Mus musculus with 36 samples.

Results

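RGS proteins (regulators of G protein signalling) are a family of intracellular brakes on signalling from G protein-coupled receptors. Transcripts of 10 RGS genes, Rgs2, Rgs3, Rgs4, Rgs5, Rgs10, Rgs12, Rgs14, Rgs16, Rgs17 and Rgs19, were followed through 20 mouse RNA-seq libraries. They are 10 of 20960 genes named in the 3 deposited expression tables, and were taken by gene name from a list drawn up with results of these data already known. The fall of Rgs16 under TGFβ in KO pancreatic cancer cells and the weaker fall of Rgs2 there were among those known results. These 2 genes may therefore have been chosen by their normalized counts in the PDA table. All PDA comparisons of Rgs2 and Rgs16 are therefore given below as description, without a p-value. Which values brought in the other names is not recorded, so their adjusted p-values too are a description of these libraries. All 10 rows were present in the organoid and embryoid body tables. The pancreatic cancer table held 9 of them and had no row for Rgs5.

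An activated receptor loads the G protein α subunit with GTP, and an RGS domain speeds the hydrolysis of that GTP, which ends the signal. Rgs2, Rgs3, Rgs4, Rgs5 and Rgs16 belong to the R4 subfamily, which acts on Gαi and Gαq proteins, and Rgs2 is known for a preference for Gαq. Rgs10, Rgs12 and Rgs14 form the R12 subfamily, in which Rgs12 and Rgs14 also carry Ras-binding and GoLoco domains, while Rgs17 and Rgs19 belong to the RZ subfamily. Several R4 genes are known as immediate responders to receptor and growth factor signals, and Rgs5 is a common marker of pericytes, the mural cells of small vessels.

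The design crosses TGFβ exposure, or differentiation, with a KO or WT label. The gene targeted in KO, Rreb1, encodes a zinc finger DNA-binding protein. KSIC_806 pancreatic ductal adenocarcinoma (PDA) cells labelled KO or WT received TGFβ (100 pM, 1.5 h) or SB505124 (SB), an inhibitor of the type I TGFβ receptor (2.5 µM, 6 h). Each of these 4 groups has 2 libraries. E14 mouse embryonic stem cells labelled KO or WT were taken as embryoid bodies (EBs) at day 4 or at day 0, 2 libraries per group as well. Pancreatic epithelial organoids, named CIY in the labels, received the same TGFβ or SB treatment with doxycycline (dox, 1 µg/mL from plating) or without it, with 1 library per condition. The other 16 samples of the series, from ChIP-seq and ATAC-seq, were not analysed here. Because SB was left on for longer than TGFβ, a TGFβ against SB difference holds ligand, inhibitor and duration at once. The labels do not say whether replicates are separate cultures or whether a genotype is 1 clone, so the p-values cover the scatter among the libraries at hand, which may be technical, and a genotype effect cannot be told apart from other properties of a line. The labels and design text do not explain the mark S4 on the PDA samples or what dox induces in the organoids.

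Depth, read back from the normalized counts, was 38.73 to 44.5 M reads in 7 PDA libraries and 20.41 M in KO SB replicate 1, 19.89 to 29.08 M in the EB libraries and 23.91 to 35.81 M in the organoids. Rreb1, the targeted gene, was read first as a check of the labels. Its normalized count was 2886 and 2560 in PDA KO TGFβ, 2164 and 2195 in KO SB, 4293 and 4212 in WT TGFβ and 1458 and 1501 in WT SB, and it lay between 1512 and 2830 in the EB KO libraries, against 1019 to 1586 in the EB WT libraries. The transcript was therefore not absent in any library labelled KO, and KO and WT stand below for the labels alone. All 8 duct epithelium markers were measured in the PDA and organoid tables, with Cldn4 at 0 in PDA KO SB, and all 8 pluripotency markers in the EB table. In the PDA cells the sums of other marker lists differed between the labels. The 6 neuronal genes summed to 4292 to 6579 in KO against 774 to 1163 in WT, with Snap25 at 0 in KO TGFβ and Elavl4 at 0 in the other 3 groups. The 3 endothelial genes summed to 928 to 1364 against 38.5 to 56.6. These sums rest on few genes. Neuronal genes at 10 or more in every library of a group numbered 3 in KO TGFβ and 2 in KO SB, against 4 in each WT group. For the endothelial genes the number was 1 in every group. The part of these differences in the KO against WT results was not tested. In bulk RNA, fewer cells of a type and less RNA per cell cannot be told apart.

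Of the 10 genes, 4 R4 members lie on chromosome 1. Their positions in the GRCm38.p6 annotation are 143999338 to 144004149 for Rgs2, 153740353 to 153745468 for Rgs16, 169655501 to 169695813 for Rgs5 and 169741477 to 169747642 for Rgs4. Rgs5 and Rgs4 are neighbours, with 45.7 kb between them. The 250 bases before each RefSeq start are shown, because Rgs2 and Rgs16 were both lower under TGFβ in PDA cells and Rgs4 and Rgs5 were both high in WT EBs at day 4. Capitals mark 4 motifs read on both strands: the CCAAT box (letters CCAAT), the SMAD element core (CAGAC), the cAMP response half-site (TGACG) and the TATA box (TATAA), with a match on the other strand shown as its reverse complement. No 2 of these matches overlap in the 4 windows.
Rgs2, chr1:144004150-144004399, minus strand: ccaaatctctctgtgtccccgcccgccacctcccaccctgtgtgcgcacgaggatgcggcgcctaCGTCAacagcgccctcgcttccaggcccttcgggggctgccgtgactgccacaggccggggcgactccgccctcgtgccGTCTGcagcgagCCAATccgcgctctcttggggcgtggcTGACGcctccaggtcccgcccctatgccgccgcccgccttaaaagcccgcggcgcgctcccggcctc
Rgs16, chr1:153740103-153740352, plus strand: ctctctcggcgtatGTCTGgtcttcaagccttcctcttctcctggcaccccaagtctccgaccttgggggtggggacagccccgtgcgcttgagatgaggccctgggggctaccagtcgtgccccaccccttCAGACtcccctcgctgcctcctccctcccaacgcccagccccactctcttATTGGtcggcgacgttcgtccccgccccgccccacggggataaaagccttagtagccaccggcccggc
Rgs5, chr1:169655251-169655500, plus strand: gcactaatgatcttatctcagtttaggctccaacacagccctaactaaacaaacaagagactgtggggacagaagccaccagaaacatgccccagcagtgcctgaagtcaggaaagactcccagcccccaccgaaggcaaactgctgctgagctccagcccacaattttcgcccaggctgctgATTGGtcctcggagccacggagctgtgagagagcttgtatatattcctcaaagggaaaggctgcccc
Rgs4, chr1:169747643-169747892, minus strand: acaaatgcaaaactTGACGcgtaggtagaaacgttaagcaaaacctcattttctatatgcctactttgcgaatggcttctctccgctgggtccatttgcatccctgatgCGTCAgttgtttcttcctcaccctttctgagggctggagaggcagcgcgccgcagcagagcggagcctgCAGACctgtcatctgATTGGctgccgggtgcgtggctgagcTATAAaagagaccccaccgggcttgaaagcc
A CCAAT match was present once in all 4 windows, and 33.8% of the 32851 promoter windows in the same table hold one. CAGAC was found in 2 places for Rgs16, once for Rgs2, once for Rgs4 and not for Rgs5, against 42.2% of all windows. TGACG occurred in both the Rgs2 and the Rgs4 window, where each held 2 copies, and in 17.8% of all windows. The Rgs4 window alone held TATAA, 31 bases before the start, which 22.8% of all windows contain. The motifs were picked with these sequences in view, and a match is a description of letters, not a bound site. Rgs16 and Rgs5 are read on the plus strand and Rgs2 and Rgs4 on the minus strand, so Rgs5 and Rgs4 point towards each other.

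In PDA cells the R4 genes Rgs2 and Rgs16 were far lower under TGFβ than under the receptor inhibitor in both genotypes, but in opposite order: Rgs16 was lowest in KO and Rgs2 was lowest in WT. The R12 gene Rgs12 was higher under TGFβ in both genotypes, and Rgs3 was higher in WT and lower in KO. The RZ gene Rgs19 differed little.

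**Figure D1:**
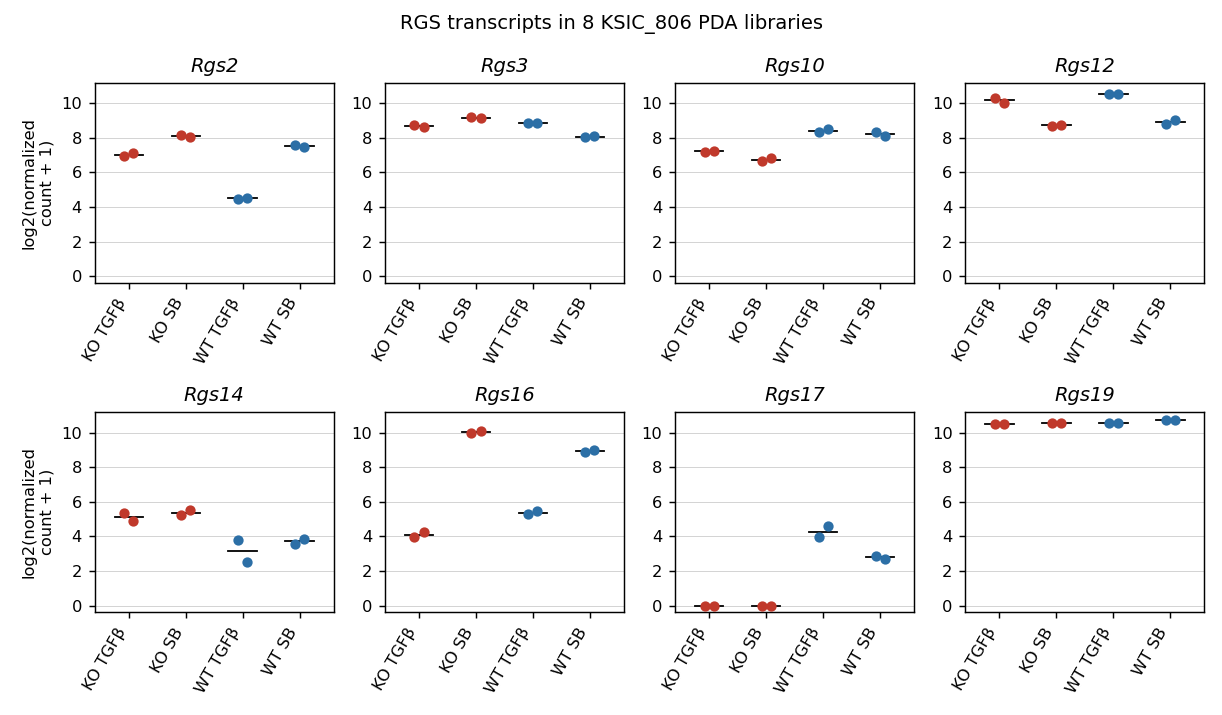
Normalized counts of the 8 RGS genes that passed the filter in the PDA table, as log2(normalized count + 1) on a shared axis. Each point is 1 library, the bar is the mean of 2, and KO libraries are red and WT libraries blue. Rgs16 shows the widest spread between treatments, and Rgs17 is at 0 in all 4 KO libraries.

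Rgs16, an R4 brake on Gαi and Gαq, had a normalized count of 14.5 and 18.2 in KO TGFβ libraries, against 1030 and 1112 in KO SB libraries. In WT cells it had 37.7 and 43.5 under TGFβ, against 472 and 503 under SB. The 4 groups did not overlap, and KO was above WT under SB and below it under TGFβ. The log2 fold change under TGFβ was −5.96 ± 0.15 (SE) in KO cells and −3.56 ± 0.15 in WT cells. The KO response was larger by −2.40 ± 0.21 on the log2 scale. KO cells held more Rgs16 than WT cells under SB (1.13 ± 0.15) and KO minus WT was −1.27 ± 0.15 under TGFβ. Both differences use KO libraries of the known fall, so no p-value is given. The order of the levels was KO SB, WT SB, WT TGFβ and KO TGFβ.

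Rgs2, the Gαq-preferring member, had 121 and 137 normalized counts in KO TGFβ libraries and 282 and 261 in KO SB libraries. WT cells had 21.3 and 22.2 under TGFβ and 188 and 174 under SB. All 4 groups were again separate, with WT TGFβ far below the rest. The log2 fold change under TGFβ was −1.07 ± 0.14 (SE) in KO cells and −3.00 ± 0.14 in WT cells, a difference of 1.93 ± 0.19. KO minus WT was 2.51 ± 0.14 under TGFβ. Under SB it was 0.58 ± 0.14, and 0.52 without the shallow KO SB replicate 1.

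Rgs3, a longer R4 member, crossed between genotypes. Its normalized count was 431 and 398 in KO TGFβ against 587 and 569 in KO SB, and 456 and 465 in WT TGFβ against 259.7 and 275 in WT SB. TGFβ libraries lay below SB libraries in KO cells and above them in WT cells. The log2 fold change was −0.48 ± 0.09 in KO (limma adjusted p = 0.00546) and 0.78 ± 0.09 in WT (adjusted p = 0.000632). The difference between these responses, −1.26 ± 0.13, passed the threshold (adjusted p = 0.00152), as a description of these libraries. Under SB the KO cells held more Rgs3 than WT cells (1.11 ± 0.09, adjusted p = 4.95e-05), while under TGFβ the difference of −0.15 ± 0.09 did not pass (adjusted p = 0.234). Rgs4, the remaining R4 row of this table, held 0 to 3 reads in each PDA library and was not tested.

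Among the R12 genes, Rgs12 was higher under TGFβ in both genotypes, with no difference between the responses detected. It had 1268 and 1054 normalized counts in KO TGFβ libraries against 416 and 435 in KO SB libraries, and 1502 and 1489 in WT TGFβ against 438 and 523 in WT SB. Every TGFβ library lay above every SB library. The gene rose by 1.44 ± 0.12 log2 units in KO (limma adjusted p = 0.000107) and 1.64 ± 0.12 in WT (adjusted p = 6.37e-05), and the responses differed by −0.20 ± 0.17 (adjusted p = 0.433). The lower KO level under TGFβ (−0.37 ± 0.12, adjusted p = 0.0422) did not pass without KO TGFβ replicate 2 (adjusted p = 0.207), WT TGFβ replicate 1 (0.175) or WT TGFβ replicate 2 (0.16).

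Rgs10, a compact R12 protein, separated the genotypes rather than the treatments. It had 142 and 153 normalized counts in KO TGFβ, 98.6 and 115 in KO SB, 317 and 363 in WT TGFβ and 324 and 279.99 in WT SB. Every KO library lay below every WT library. KO minus WT was −1.20 ± 0.14 log2 units under TGFβ (limma adjusted p = 0.000359) and −1.49 ± 0.14 under SB (adjusted p = 9.08e-05). Its rise under TGFβ in KO cells (0.47 ± 0.14, adjusted p = 0.0323) did not pass when any 1 of the 4 KO libraries was left out: adjusted p was 0.0606 without TGFβ replicate 1, 0.121 without TGFβ replicate 2, 0.175 without SB replicate 1 and 0.0526 without SB replicate 2. The WT response of 0.17 ± 0.14 did not pass (adjusted p = 0.376).

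Rgs14, the R12 scaffold that binds Gαi and Ras family proteins, went the other way, with 40.8 and 28.2 in KO TGFβ, 36.2 and 45.9 in KO SB, 13.1 and 4.63 in WT TGFβ and 11.01 and 13.68 in WT SB. All KO libraries exceeded all WT libraries. The difference was 1.97 ± 0.44 log2 units under TGFβ (limma adjusted p = 0.00932) and 1.65 ± 0.44 under SB (adjusted p = 0.0141). The TGFβ value ranged with the WT TGFβ library left out, 2.63 without replicate 1 and 1.31 without replicate 2. The SB value did not pass without KO SB replicate 2 (adjusted p = 0.0776) or WT SB replicate 1 (0.052). Neither genotype's TGFβ response passed (adjusted p = 0.68 in KO and 0.344 in WT).

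The RZ genes stood apart from each other. Rgs17 had no read in any of the 4 KO libraries and 14.8 and 23.1 normalized counts in WT TGFβ against 6.42 and 5.47 in WT SB. With KO set to a floor of 3 reads over the group, it was 13.7-fold below WT under TGFβ (0 against 43 reads) and 3.15-fold below it under SB (0 against 13 reads). The exact 95% counting interval, which also covers the WT reads, starts at 10.7-fold under TGFβ and at 2.21-fold under SB. Rgs17 passed the filter only through the WT TGFβ libraries, so its part in any count of calls is no evidence and no test is given. In WT cells the 43 reads under TGFβ were 3.14-fold above the 13 reads under SB, with an exact 95% counting interval of 1.66 to 6.37. This interval pools the reads of a group and covers counting error only. It is no test of a rise, since WT TGFβ is the group that passed the filter. Rgs19, which acts on Gαi and Gαz, stayed between 1443 and 1733 in the 8 libraries, and none of its 5 comparisons passed (limma adjusted p from 0.0713 to 0.531). Its KO minus WT difference under SB (−0.16 ± 0.07) passed after rescaling to equal totals (−0.31, adjusted p = 0.00431) and after quantile normalization (−0.23, adjusted p = 0.0206), and its WT TGFβ response passed after quantile normalization (−0.20, adjusted p = 0.0449).

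Counted over the 8 tested members, 2 were higher and 3 lower under TGFβ in KO cells, where 38.7% of the 13226 genes tested were called, 20.6% higher and 18% lower. In WT cells 3 were higher and 2 lower, against 19.4% and 17.6% of all genes (36.9% in all). The responses differed between genotypes for 3 members, 1 upward and 2 downward, against 9.71% and 12.1% of all genes (21.8% in all). KO exceeded WT for 2 members and was below it for 4 under TGFβ, where 40.2% of genes were called, 21.2% higher and 19% lower. Under SB the counts were 4 and 2, where 56.2% of genes were called, 28.9% higher and 27.2% lower. The counts include the known Rgs2 and Rgs16 values and, for WT TGFβ and KO against WT, Rgs17, so they describe the 8 genes and nothing is read from them against the background. The numbers of genes called over the whole table depended on single libraries. For TGFβ in KO 5113 became 2956 without KO SB replicate 1 and 3148 without replicate 2 of that group, and in WT 4887 became 2254 without WT TGFβ replicate 1 and 2286 without replicate 2. For the interaction 2886 became 940 (replicate 1 omitted) and 1188 (replicate 2 omitted) in the KO SB group, and 764 (replicate 1 omitted) and 827 (replicate 2 omitted) in the WT TGFβ group. For KO against WT under TGFβ 5316 became 3212 without WT TGFβ replicate 1 and 3266 without replicate 2. The median log2 fold change of the members was −0.16 in KO and 0.01 in WT under TGFβ, beside 0.02 and 0.00 over all genes.

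The organoids placed Rgs2 and Rgs12 on the same side of SB as the PDA cells did, and Rgs16 on the opposite side. With 1 library per condition there is no test, and the intervals below are exact 95% counting intervals that leave out variation between cultures. Rgs16 had 854 normalized counts under TGFβ against 339 under SB with dox, a log2 ratio of 1.33 (1.16 to 1.50), and 1515 against 969 without dox, a log2 ratio of 0.64 (0.53 to 0.76). Rgs2 had 200.3 under TGFβ against 423 under SB with dox (−1.07, interval −1.33 to −0.83) and 199.6 against 329 without dox (−0.72, interval −0.98 to −0.47). Rgs12 had 1552 against 953 with dox (0.70, interval 0.59 to 0.81) and 1281 against 895 without (0.52, interval 0.40 to 0.64). These 3 genes kept 1 direction in both dox states. Whether the opposite direction of Rgs16 in organoids and PDA cells differs beyond culture variation was not tested.

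**Figure D2:**
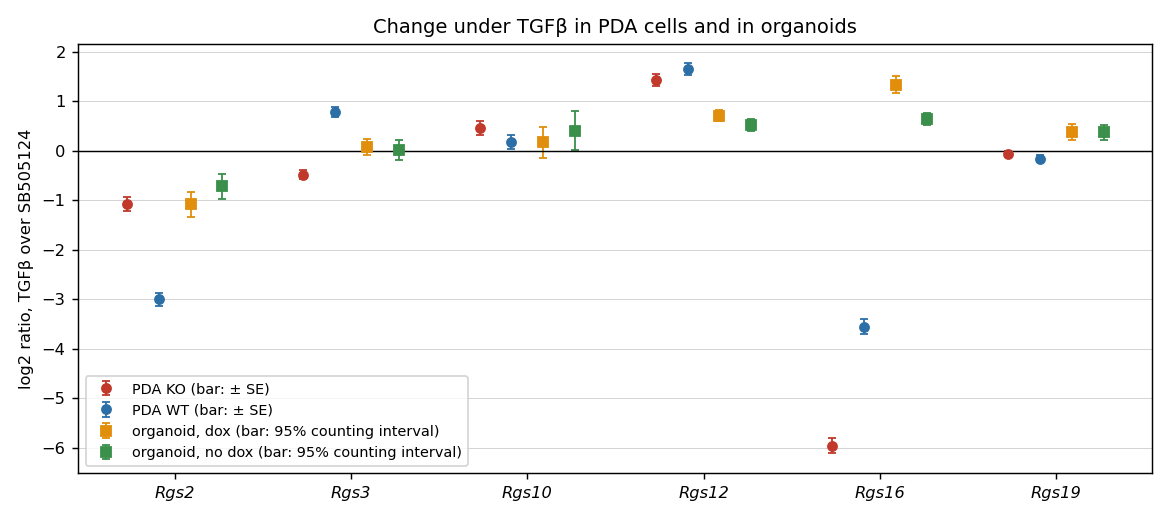
Log2 ratio of TGFβ over SB505124 for the 6 RGS genes that passed the filter in both tables, in PDA KO and WT cells (circles, bars ± SE, 2 libraries a group) and in organoids with and without dox (squares, bars 95% counting intervals, 1 library a condition). Rgs16 lies at −5.96 and −3.56 in PDA KO and WT cells and at 1.33 and 0.64 in organoids.

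The other organoid values were smaller. Rgs19 had a log2 ratio of 0.38 with dox and 0.37 without. Rgs3 had 0.08 (−0.08 to 0.24) with dox and 0.01 (−0.19 to 0.21) without, neither distinct from 0 at this depth. Rgs10 had 0.17 (−0.14 to 0.49) with dox and 0.41 (0.02 to 0.80) without. Of the 6 tested members, Rgs16 was higher and Rgs2 lower by a log2 ratio of at least 1 under TGFβ with dox, beyond which lay 6.75% of 13443 genes, 3.52% upward and 3.24% downward. Without dox 0 of 6 passed that size, against 6.41% of genes, 3.56% upward and 2.85% downward.

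Dox went with lower Rgs16. Its log2 ratio of dox over no dox was −0.83 (−0.96 to −0.70) under TGFβ and −1.51 (−1.67 to −1.36) under SB, and it was the only tested member past a log2 ratio of 1, under SB. In that comparison 17.5% of genes lay past that size, 7.93% higher and 9.57% lower. Under TGFβ 0 of 6 members passed, against 17.4% of genes, 7.84% higher and 9.6% lower. Rgs3 was 0.59 (0.40 to 0.78) higher with dox under TGFβ and 0.52 (0.35 to 0.69) under SB. Rgs10 was 0.44 (0.09 to 0.80) higher with dox under TGFβ and 0.67 (0.34 to 1.03) under SB. Rgs4, Rgs5, Rgs14 and Rgs17 did not pass the organoid filter. Rgs5, Rgs14 and Rgs17 had at most 4 reads in any organoid library. Rgs4 had 23 reads (normalized count 26.0) with dox under TGFβ and 0 with dox under SB. That was 11.7-fold higher with SB set to a floor of 3 reads, and the counting interval starts at 8.74-fold. The 23 reads were 12.4-fold (interval 3.06 to 108) above the 2 reads without dox under TGFβ.

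In EBs the adjacent R4 genes Rgs4 and Rgs5 were high in the WT day 4 libraries and below 10 normalized counts in the other 3 groups, while Rgs16 and Rgs17 rose by day 4 in both genotypes. Rgs3 and Rgs12 rose modestly in both and were lower in KO than in WT on both days. Rgs10 did not pass in any comparison.

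**Figure D3:**
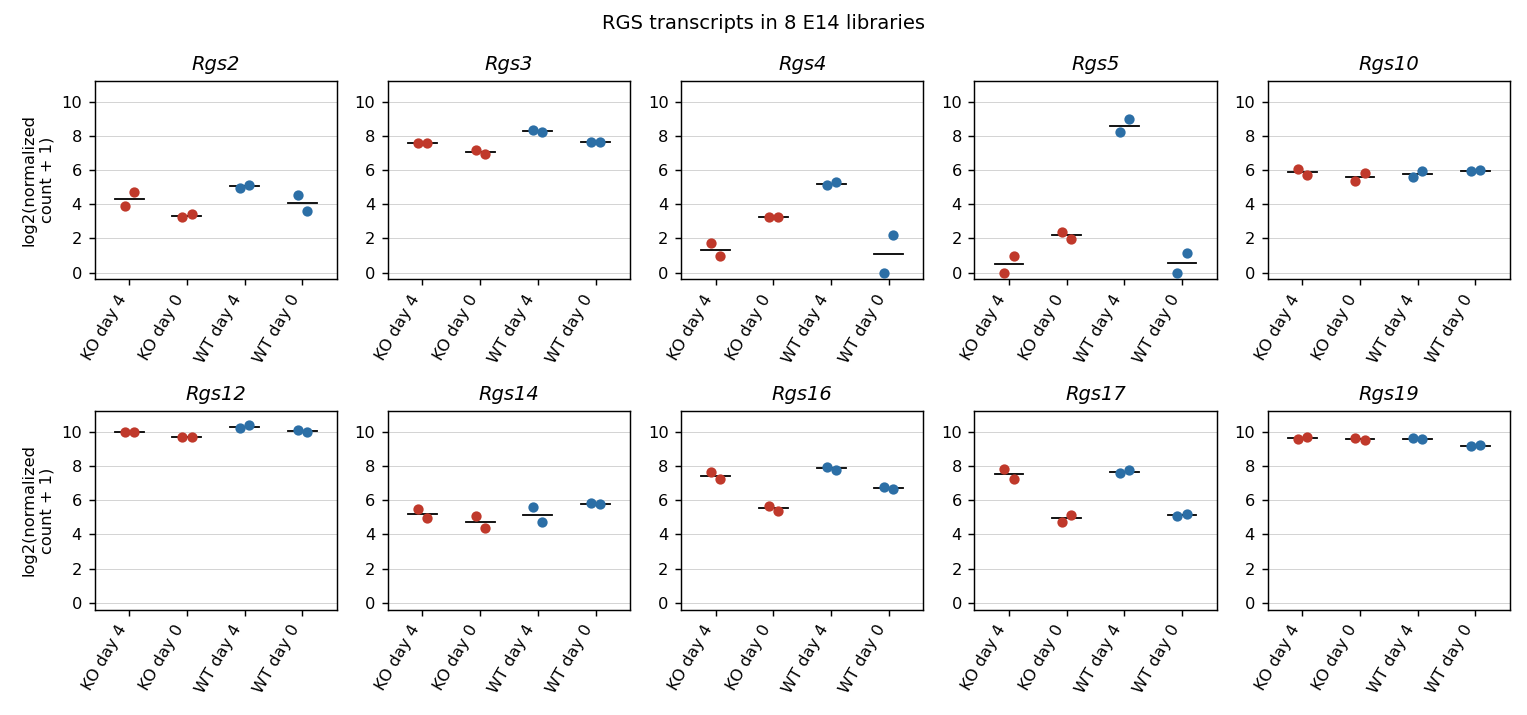
Normalized counts of the 10 RGS genes in the E14 table, as log2(normalized count + 1) on a shared axis. Each point is 1 library and each bar the mean of 2, with KO libraries in red and WT libraries in blue. Rgs4 and Rgs5 stand high in both WT day 4 libraries and near 0 in both KO day 4 libraries, whereas Rgs17 climbs alike in both genotypes.

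Rgs5, the pericyte-associated R4 gene, had 0 and 0.986 normalized counts in KO day 4, 4.24 and 2.87 in KO day 0, 293 and 499 in WT day 4 and 0 and 1.21 in WT day 0. The KO day 4 group held 1 read and the WT day 4 group 840 reads, so KO was 755-fold lower (exact 95% counting interval 135 to 29843). WT day 4 was 729-fold above the 1 read of WT day 0 (130.5 to 28825). Within KO the day 4 group was 6.83-fold below the 8 reads of day 0, with an interval of 0.915 to 303 that includes no difference.

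Rgs4, an R4 gene known from neurons and heart, was also highest in WT day 4. It had 2.26 and 0.986 in KO day 4, 8.48 and 8.605 in KO day 0, 33.6 and 38.2 in WT day 4 and 0 and 3.63 in WT day 0. KO day 4 (3 reads) was 22.8-fold below WT day 4 (76 reads), with a counting interval of 7.50 to 113, and WT day 4 was 21.98-fold above WT day 0 (7.24 to 109). KO day 4 was 5.40-fold below the 19 reads of KO day 0 (1.59 to 28.5). Both genes passed the filter only through the WT day 4 libraries, so they had to differ there and no test is given. The counting intervals of Rgs4 and Rgs5 that involve WT day 4 are no test either. They pool the reads of a group and cover counting error only. The 2 WT day 4 libraries differed in Rgs5 by more than in Rgs4.

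Of the genes flanking the pair on chromosome 1, 3 were read in the same libraries, a choice made after the Rgs4 and Rgs5 values were seen. Nuf2 lies on the Rgs5 side, and Hsd17b7 and then Ddr2 on the Rgs4 side. Hsd17b7, a cholesterol synthesis gene, had 219.6 and 218 normalized counts in KO day 4 against 651 and 696 in WT day 4 (log2 fold change −1.62 ± 0.10, limma adjusted p = 8.62e-09), and was also lower in KO at day 0, with 249 and 237 against 519.9 and 521. Nuf2, a kinetochore gene, had 1229 and 1265 in KO day 4 against 1541 and 1528 in WT day 4 (−0.30 ± 0.07, adjusted p = 0.00256), and the opposite order at day 0, with 1720.2 and 1823 in KO against 1313 and 1405 in WT. Ddr2, a collagen receptor gene, was higher in KO at day 4, with 139 and 103 in KO against 76.9 and 66.2 in WT (0.74 ± 0.17, adjusted p = 0.00229), and at day 0 it had 352 and 374 in KO against 113 and 107 in WT. These 3 genes were detected at 66.2 or more in each of the 8 EB libraries, unlike Rgs4 and Rgs5.

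**Figure D4:**
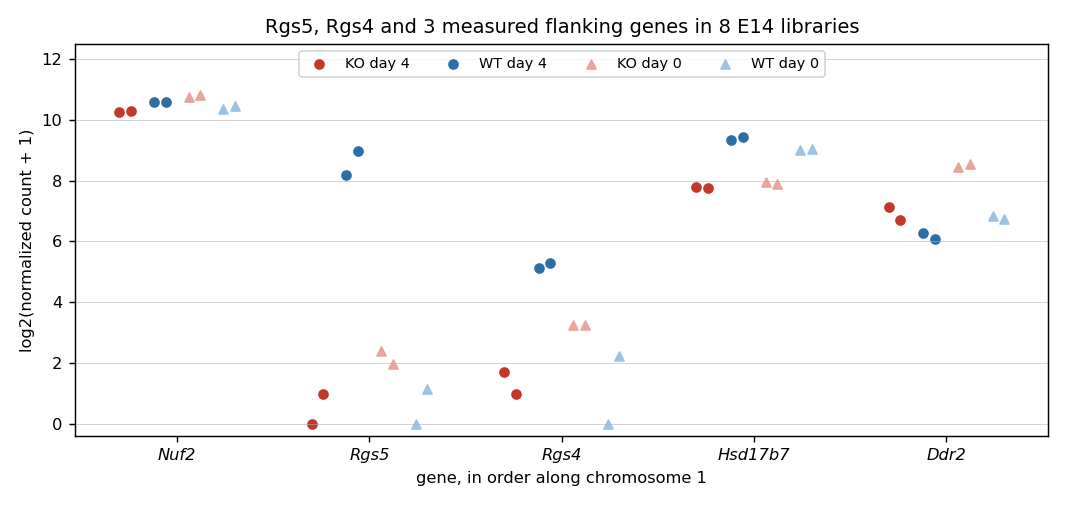
Normalized counts, as log2(normalized count + 1), of Rgs5, Rgs4 and 3 flanking genes, in their order along chromosome 1 and not to scale in distance. Each marker is 1 library. The 3 flanking genes lie above 6 in every library, and Rgs5 and Rgs4 lie above 5 in WT day 4 and below 4 elsewhere.

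The marker lists also separated the EB groups. The 8 primitive streak and early mesoderm markers summed to 768 and 776 in KO day 4 against 7107 and 12912 in WT day 4, where all 8 reached 10 in both libraries. The 8 pluripotency markers summed to 102263 and 102768 in KO day 4 against 56461 and 57260 in WT day 4. The 8 pericyte and smooth muscle markers summed to 1633 and 1710, with Abcc9 at 0, against 2745 and 2764 in WT day 4 with none at 0. At day 0, where Rgs5 was near 0 in WT, the same list summed to 1708 and 1826 in KO against 2458 and 2483 in WT with Abcc9 at 0. The sum of the 3 endothelial markers went the other way at day 4, with 3415 and 3444 in KO and Cdh5 at 0, against 1205 and 1342 in WT. All 3 reached 10 in both WT day 4 libraries, and 2 did so in KO day 4. At day 0 their sum was higher, with 5894 and 6052 in KO and 3224 and 3277 in WT. The 6 neuronal markers summed to 2899 and 2914 in KO day 4 against 2117 and 2317 in WT day 4. At day 0 that sum was 6424 and 6545 in KO and 12436 and 13295 in WT, where Rgs4 was near 0. The part of these differences in the Rgs4 and Rgs5 values was not tested.

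Rgs16 had 196 and 148 normalized counts in KO day 4, 50.0 and 41.1 in KO day 0, 246 and 216 in WT day 4 and 106 and 98.1 in WT day 0. Day 4 lay above day 0 in each genotype, and KO day 0 was the lowest group. It rose by 1.88 ± 0.18 log2 units in KO (limma adjusted p = 8.63e-07) and by 1.17 ± 0.18 in WT (adjusted p = 7.15e-05). KO was lower than WT at day 0 (−1.15 ± 0.18, adjusted p = 7.13e-05), and the difference at day 4 did not pass (−0.44 ± 0.18, adjusted p = 0.0568), although it did without KO day 4 replicate 1 (−0.64, adjusted p = 0.0227), with a replicate block (0.0362), with edgeR (0.0337) and after rescaling to equal totals (0.0251). The larger KO rise (0.72 ± 0.26, adjusted p = 0.0307) did not pass without KO day 0 replicate 2 (adjusted p = 0.103), KO day 4 replicate 1 (0.131) or any 1 of the 4 WT libraries (0.0536 to 0.122).

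Rgs17, an RZ member that acts on Gαi and Gαz, had 224 and 152 in KO day 4, 25.4 and 34.4 in KO day 0, 192 and 215 in WT day 4 and 32.7 and 35.1 in WT day 0. It rose by 2.60 ± 0.23 log2 units in KO (limma adjusted p = 2.53e-07) and 2.55 ± 0.23 in WT (adjusted p = 2.42e-07), with a difference of 0.05 ± 0.32 (adjusted p = 0.906). The gene that had no read in PDA KO cells was thus present in every E14 library of both labels. Rgs19, the other RZ member, had 758 and 832 in KO day 4, 808 and 722 in KO day 0, 778 and 752 in WT day 4 and 573 and 591 in WT day 0. The WT day 0 group stood below the rest: Rgs19 rose in WT (0.39 ± 0.09, adjusted p = 0.00156), not detectably in KO (0.06 ± 0.09, adjusted p = 0.61), and was higher in KO at day 0 (0.39 ± 0.09, adjusted p = 0.00146). The difference between the responses (−0.34 ± 0.13, adjusted p = 0.0356) did not pass without KO day 0 replicate 1 (adjusted p = 0.147), KO day 4 replicate 1 (0.0931) or any 1 of the 4 WT libraries (0.0651 to 0.105).

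Rgs3 had 187 and 186 normalized counts in KO day 4, 143 and 122 in KO day 0, 326 and 300.3 in WT day 4 and 201.4 and 201.1 in WT day 0. The KO libraries lay below the WT libraries of the same day. KO minus WT was −0.74 ± 0.13 log2 units at day 4 (limma adjusted p = 0.000284) and −0.60 ± 0.13 at day 0 (adjusted p = 0.00113). The rise to day 4 was 0.49 ± 0.13 in KO (adjusted p = 0.00548, and 0.058 without KO day 0 replicate 2) and 0.63 ± 0.13 in WT (adjusted p = 0.00087), and these did not differ by the test (adjusted p = 0.553). Rgs12 had 1031 and 1006 in KO day 4, 829.6 and 815 in KO day 0, 1195 and 1331 in WT day 4 and 1091 and 1031 in WT day 0, with KO minus WT at −0.31 ± 0.08 at day 4 (adjusted p = 0.00447, and 0.0563 without WT day 4 replicate 2) and −0.37 ± 0.08 at day 0 (adjusted p = 0.000977). Its rise was 0.31 ± 0.08 in KO (adjusted p = 0.00406) and 0.25 ± 0.08 in WT (adjusted p = 0.0141), the WT rise not passing without WT day 0 replicate 2 (0.115) or WT day 4 replicate 2 (0.124).

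Rgs2 was low in EBs, with 13.6 and 25.6 in KO day 4, 8.48 and 9.56 in KO day 0, 29.8 and 34.5 in WT day 4 and 21.8 and 10.9 in WT day 0. Day 4 exceeded day 0 in both genotypes, by 0.98 ± 0.40 log2 units in KO (limma adjusted p = 0.0476) and 1.00 ± 0.40 in WT (adjusted p = 0.0407). The KO rise did not pass without KO day 0 replicate 1 (adjusted p = 0.148), KO day 0 replicate 2 (0.0961) or KO day 4 replicate 2 (0.336), nor the WT rise without WT day 0 replicate 2 (0.342), WT day 4 replicate 1 (0.101) or WT day 4 replicate 2 (0.176). KO minus WT did not pass on either day, at −0.75 ± 0.40 at day 4 (adjusted p = 0.127) and −0.72 ± 0.40 at day 0 (adjusted p = 0.126), but it did without KO day 4 replicate 2 (−1.18, adjusted p = 0.0485) and without WT day 0 replicate 2 (−1.19, adjusted p = 0.0381). Rgs14 had 43.0 and 30.6 in KO day 4, 33.1 and 20.1 in KO day 0, 47.1 and 25.2 in WT day 4 and 55.6 and 53.3 in WT day 0. Only its day 0 difference passed (KO minus WT −1.05 ± 0.33, adjusted p = 0.0121), and not without KO day 0 replicate 2 (0.13) or WT day 0 replicate 1 (0.0584). Leaving out WT day 4 replicate 1 made its WT fall pass (−1.08, adjusted p = 0.0344). Its interaction of 1.12 ± 0.47 (adjusted p = 0.0558) passed without KO day 0 replicate 1 (0.0262), KO day 4 replicate 2 (0.0408) or WT day 4 replicate 1 (0.0247). Rgs10 lay between 40.7 and 65.6 in the 8 libraries, with adjusted p from 0.204 to 0.804 over 5 comparisons.

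Over the 10 members, 5 were higher and 2 lower at day 4 in KO, where 60% of 15227 genes were called, 29.1% higher and 30.9% lower. In WT 8 were higher and 0 lower, where 63.1% of genes were called, 32.3% higher and 30.8% lower. Of the other 2 in WT, Rgs10 had an unadjusted p of 0.499 and Rgs14 of 0.0728. KO exceeded WT for 0 members and fell below it for 4 at day 4 (Rgs3, Rgs4, Rgs5 and Rgs12), against 27.8% and 28.4% of genes (56.2% in all). At day 0 the counts were 3 and 4, against 33.9% and 33.3% (67.2% in all). The time courses differed for 4 members, 1 upward and 3 downward, against 27.1% and 28.6% of genes (55.7% in all). Rgs4 and Rgs5 are in each of these counts and could not have failed at WT day 4. They are the 2 lower at day 4 in KO and are among the 3 higher in KO at day 0. For Rgs5 these calls rest on 1 against 8 reads and on 8 against 1 read. The exact counting intervals of its fold differences, 0.915 to 303 and 0.884 to 293, include no difference. Those of Rgs4, 1.59 to 28.5 and 1.54 to 27.5, do not. The day 0 count of 7 became 4 without WT day 0 replicate 1. The KO day 4 count of 7 became 4 without KO day 0 replicate 1 or replicate 2. The interaction count of 4 became 2 without KO day 4 replicate 1, WT day 0 replicate 1, WT day 0 replicate 2 or WT day 4 replicate 2.

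Genes with the most similar pattern were taken among those with a mean normalized count of at least 50, by Pearson correlation of log2 values over the 8 libraries of a table. Over the 10903 PDA candidates, Rgs2 was closest to Rnd3 (r = 0.997), Dusp6, an ERK phosphatase gene (r = 0.994), and the chemokine gene Cxcl5 (r = 0.989). Rgs16 was closest there to Stbd1 (r = 0.998), Swap70 (r = 0.998) and Eif3c (r = 0.997). In the EB table Rgs5, whose log2 range of 8.97 was the largest among the members, was closest to Hmga2 (r = 0.994), a chromatin protein gene, Tbx20 (r = 0.991), a cardiac transcription factor gene, and Lgr5 (r = 0.991), an R-spondin receptor gene. For Rgs16 they were Atp10d, Anxa4 and P4ha2 (each r = 0.997), and for Rgs2 Pik3r2 (r = 0.969), Prrg1 (r = 0.949) and Axin1 (r = 0.942). The 8 points form 4 groups that share genotype and treatment or day, so high values are common and describe these libraries only.

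Other genes of G protein signalling were counted as lists that were written with earlier results known. They are to be read beside the 38.7% of all PDA genes called for TGFβ in KO and the 36.9% in WT. Of a list of 13 further genes, RGS genes together with the RGS-binding protein genes Rgs7bp and Rgs9bp, 3 were tested in PDA cells. Of these, 1 rose and 1 fell under TGFβ in each genotype. Rgs11, an R7 member that pairs with Gβ5, had 873 and 742 normalized counts in KO TGFβ against 316 and 356 in KO SB (log2 fold change 1.26 ± 0.12, limma adjusted p = 0.000206), and 193 and 197 in WT TGFβ against 99.1 and 95.8 in WT SB (0.99 ± 0.12, adjusted p = 0.000747). Rgs20, an RZ relative of Rgs17 and Rgs19, had 277 and 276 in KO TGFβ against 708 and 658 in KO SB (−1.30 ± 0.10, adjusted p = 8.11e-05), and 449 and 488 in WT TGFβ against 782 and 683 in WT SB (−0.64 ± 0.10, adjusted p = 0.00273). In both of these genes the TGFβ and SB libraries of a genotype did not overlap.

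Among 11 tested Gα genes, 0 passed under TGFβ in KO by limma, edgeR or DESeq2 (1 at an unadjusted limma p under 0.05), and 3 rose and 1 fell in WT. Gna13, which encodes Gα13, rose there by 0.79 ± 0.10 (limma adjusted p = 0.00108). Of 11 tested Gβ and Gγ genes, 1 rose in KO (Gng10, 0.50 ± 0.07, adjusted p = 0.00141) and 0 passed in WT by any of the 3 tools (2 at an unadjusted limma p under 0.05). Of 7 receptor kinase and arrestin genes 2 rose in KO and 1 in WT, with Arrb1, β-arrestin 1, higher in both (0.97 ± 0.07 in KO and 1.01 ± 0.07 in WT, adjusted p = 6.57e-05 and 5.93e-05). Of 13 effector genes, 5 rose in KO (3 by edgeR and 2 by DESeq2) and 6 in WT, and 0 fell by any of the 3 tools or at an unadjusted limma p under 0.05, with Adcy9, an adenylyl cyclase gene, among them in both (0.31 ± 0.08 and 0.42 ± 0.08, adjusted p = 0.0168 and 0.0051). Between genotypes under SB 56.2% of all genes were called, 28.9% higher and 27.2% lower in KO. Of the effector genes 3 were higher and 5 lower in KO, and of the Gβ and Gγ genes 4 were higher and 3 lower. Adcy1, another adenylyl cyclase gene, had a mean of 77.2 in KO and 2151 in WT (−4.79 ± 0.18, limma adjusted p = 1.33e-06). Gnb4, a Gβ gene, had 242 and 1694 (−2.80 ± 0.09, adjusted p = 9.38e-07).

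In EBs, 15 Gα genes were tested, beside a share of all genes called of 60% for day 4 in KO, 63.1% in WT and 56.2% for KO against WT at day 4. At day 4 against day 0, 5 rose and 3 fell in KO and 8 rose and 5 fell in WT, with Gnas, encoding Gαs, higher in both (0.79 ± 0.06 in KO, limma adjusted p = 1.38e-07, and 1.21 ± 0.06 in WT, adjusted p = 1.26e-09). KO minus WT at day 4 was positive for 1 and negative for 6, among them the Gαi genes Gnai2 (−0.95 ± 0.06, adjusted p = 1.07e-08) and Gnai1 (−1.46 ± 0.11, adjusted p = 5.89e-08). Of the list of further RGS and RGS-binding protein genes, 8 were tested, with Rgs7bp and Rgs9bp among them. In KO 2 rose and 0 fell, by limma, edgeR or DESeq2 and at an unadjusted limma p under 0.05. In WT 2 rose and 2 fell by limma. Rgs11 had 1069 and 833 normalized counts in KO day 4 against 28.8 and 21.99 in KO day 0 (5.17 ± 0.16, adjusted p = 9.63e-12), and 414 and 366 in WT day 4 against 197 and 189 in WT day 0 (1.01 ± 0.16, adjusted p = 8.22e-05). KO was thus below WT at day 0 and above it at day 4, and the responses differed by 4.16 ± 0.23 (adjusted p = 4.93e-09). Of 16 effector genes, 5 rose and 3 fell in KO and 7 rose and 4 fell in WT.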

How the data were processed

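RNA-seq was analysed in 20 libraries of 3 culture systems. The deposited signal was 1 normalized count per gene and library, in separate tables for organoids, PDA cells and EBs. Tools listed in the submitters' processing notes, without roles, are HTSeq 0.6.1p1, DESeq2 3.4, Bowtie2, HOMER and FastQC 0.11.5, and the build listed is mm10. Per the labels' protocols the kit was TruSeq v2, which does not mark strand. In each library, values divided by 1 step gave whole reads for 100% of genes (tolerance 0.001); these reads gave depth, counting intervals and floors, which cover counting error only, and the count-based alternatives.

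Genes that reached 10 in 2 or more of the 8 libraries were tested (13226 in PDA, 15227 in EB; organoids a mean of at least 10, 13443). limma 3.58.1 (R 4.3.3) with the trend option was fitted to log2(value + 1) over the 8 libraries of a table in 4 groups, two-sided, with Benjamini-Hochberg adjustment over all genes tested and a threshold of 0.05. Fold changes are on the log2(value + 1) scale, which understates changes of low genes. Organoids, with 1 library per condition, got log2 ratios without a test. The fit was tested on simulated counts: at a log2 change of 1 it recovered 99% of 100 changed genes, both for TGFβ against SB in WT PDA cells (13226 genes) and for day 4 against day 0 in WT EBs (15227 genes). The changed genes were drawn from those with a mean of at least 50, and all genes had the same fixed dispersion. The recovery therefore does not cover members with lower counts, such as Rgs2 in EBs. The labels state no pairing of samples, and none was used in the main fit. Same-number correlations ran from −0.16 to 0.14 (Pearson), which with 2 libraries a group cannot settle whether samples were paired. Alternatives were the pseudocount, the filter, rescaling, quantile normalization, edgeR 4.0.16, DESeq2 1.42.0, a replicate block and leaving out each library.

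The members, lists and tests were chosen with earlier results of these data known. Named were all members, Rreb1, up to 3 genes of each pathway list and comparison with the smallest adjusted p, and 3 genes of closest pattern; 3 genes flanking Rgs4 and Rgs5 were added after the data were seen, and a further flanking gene is not reported here. Tables were normalized separately, so tests stay within a table. Promoter sequences and positions came from RefSeq for GRCm38.p6, which matched 9 of the 10 members and 10 of 10. RefSeq also lists Rgs14 as an older name of Rgs16; row names were used as deposited. Levels are not compared between genes, since no transcript lengths were used.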

Additional observations from a re-analysis of the deposited data

Results flagged for a closer look

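In PDA cells the TGFβ responses of Rgs2, Rgs3 and Rgs16 stood apart between genotypes. The Rgs2 and Rgs16 values were known when the genes were listed, so only the Rgs3 value is given with a limma adjusted p (0.00152). Which values brought in Rgs3 is not recorded, so this p too is a description of these libraries. KO minus WT TGFβ response, on the log2 scale, was 1.93 for Rgs2, −1.26 for Rgs3 and −2.40 for Rgs16. In these cells the KO TGFβ fold changes were −1.07, −0.48 and −5.96 and the WT fold changes −3.00, 0.78 and −3.56, in the same order of genes. The direction itself differed for Rgs3.

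In EBs the day 4 response differed between genotypes by 0.72 for Rgs16 and −0.34 for Rgs19 on the log2 scale. The fitted differences of −6.00 for Rgs4 and −9.69 for Rgs5 are no test result, since both genes passed the filter only through the WT day 4 libraries, and they depend on the pseudocount. Leaving out single libraries ended the Rgs16 and Rgs19 calls.

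Rgs16 was lower under TGFβ in every PDA library than in the SB libraries of its genotype and higher under TGFβ in organoids, by 1.33 with dox and 0.64 without on the log2 scale. The difference between organoids and PDA cells was not tested, since the tables were normalized separately and the organoids had 1 library per condition.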

How the results depend on the processing

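No called member value changed direction under any alternative, and 38 of 55 called values kept the call in all of them. The 38 include PDA values of Rgs2 and Rgs16 and the Rgs17 differences between genotypes in PDA cells. They also include the Rgs4 and Rgs5 values that involve WT day 4. All of these are given above without a test, so the 38 is no measure of support for the members. Counts of members called moved by more than 1.5 times with DESeq2 for the EB day 4 response in KO (4, main count 7) and the EB interaction (2, main count 4). With single libraries left out the counts ran from 4 to 6 and from 2 to 5 for those comparisons, from 4 to 8 for EB KO against WT at day 0, from 3 to 5 at day 4 and from 6 to 8 for the WT day 4 response. In PDA cells they ran from 5 to 6 for KO against WT under either treatment, and were 4 for the TGFβ response in each genotype and 3 for the interaction, while the genes called over the table ran from 2956 to 4458 for TGFβ in KO, 2254 to 5183 in WT and 764 to 3881 for the interaction. Without the low-value filter, members past a log2 ratio of 1 in organoids numbered 5 for TGFβ with dox, 1 without dox, 4 for dox under SB and 3 for dox under TGFβ, through genes of few reads. With a replicate block the counts were 4 and 4 for TGFβ in KO and WT PDA cells, and the number of genes called for the PDA interaction was 1596 in place of 2886. With the 2 KO TGFβ numbers crossed, 5 members and 6101 genes were called for TGFβ in KO. Rgs10 for TGFβ in KO (adjusted p = 0.131 with DESeq2 and 0.0693 with edgeR) was the call most often lost in PDA cells. Rescaling to equal totals moved the median of all genes by 0.11 for TGFβ in KO and by −0.15 for KO against WT under SB. It changed the genes called higher and lower to 3830 and 1802 for TGFβ in KO (main counts 2731 and 2382), 2825 and 1980 for TGFβ in WT (2565 and 2322), 2360 and 3305 for KO against WT under TGFβ (2808 and 2508), 2975 and 4901 under SB (3828 and 3600), 5491 and 4079 for EB day 4 in WT (4912 and 4690) and 3428 and 5331 for EB KO against WT at day 4 (4236 and 4319). Depth limits Rgs4, Rgs5, Rgs14 and Rgs17, where a floor of 3 reads is a value of 2.23 to 6.03 per library. The cause of these changes was not tested.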

Other observations

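In organoids, 5 of the 13 further RGS and RGS-binding protein genes passed the filter, with Rgs9bp among them. With dox under SB, 4 of the 5 were lower by a log2 ratio of at least 1 (median of the 5 −1.85). That size was reached downward by 9.57% of all genes. The 4 include 2 with low values: Rgs8 had 8.18 with dox against 35.4 without, and Rgs9bp 6.70 against 26.8. Under TGFβ 2 of the 5 were lower by that size, against 9.6% of all genes (median −0.85). Rgs11, the R7 gene described above, had a normalized count of 65.6 with dox and 399 without under TGFβ, and 83.3 with dox and 445 without under SB. Rgs20, the RZ relative, had 43.0 and 98.8 under TGFβ and 42.4 and 128 under SB. There is 1 library per condition, so no test was made.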
